A study of Mus musculus with 24 samples.

Results

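Ggh, Cacna2d2, Rassf1, Id2, Jmjd6 and Upk1b are 6 of the 24614 genes in the count table, taken by their symbols. They were chosen by their untreated log2 differences between ID8 clones with a knockout of the interferon receptor gene Ifnar1 and control cells, from among genes not known as typical interferon targets. All 6 passed the filter on low counts, Ggh only through the control libraries, where it is high. ID8 is a mouse ovarian cancer line, and per the labels the parental cells of all groups lack Trp53, a tumour suppressor, and Brca2, a DNA repair gene. The groups were the knockout clones 1CF10 and 2CD7, cells that received a CRISPR empty vector (EV, Ifnar1 wild type) and untransfected cells (WT, Ifnar1 wild type), each after 3 h in 10000 IU/ml recombinant mouse interferon beta (IFN beta) and each untreated. Every group had 3 libraries, which the design text calls technical replicates treated on 1 date, so each p-value measures the spread between such replicates, and each knockout line is 1 clone. A difference made by the loss of Ifnar1 and a difference that both clones carry for another reason cannot be told apart in this design.

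The 6 genes do unrelated work. Ggh encodes gamma-glutamyl hydrolase, a lysosomal enzyme that trims the glutamate tail of folates and of antifolate drugs and so lets them leave the cell. Cacna2d2 encodes an alpha2delta subunit that brings voltage-gated calcium channels to the membrane. Rassf1 encodes a scaffold with a Ras association domain that binds the Hippo kinases, and its human counterpart is a tumour suppressor often silenced by promoter methylation. Id2 encodes a helix-loop-helix protein without a DNA-binding region, which holds E proteins away from DNA. Jmjd6 encodes a JmjC oxygenase that hydroxylates lysines, among others in the splicing factor U2AF2. Upk1b encodes uroplakin 1b, a tetraspanin known from the plaques of the bladder lining. Type I interferons act through the receptor of Ifnar1 and Ifnar2 and the STAT factors on genes with an interferon-stimulated response element.

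Libraries held 1972192 to 3097331 UMIs (unique molecular identifiers, each marking 1 captured molecule) and 15685 to 16951 detected genes. Levels are given as CPM, the UMIs of a gene scaled to a library of 1000000 UMIs. Rsad2, an antiviral gene used as a check of the treatment, stood at 0.38 to 8.86 CPM in the 6 treated clone libraries, against 831 to 1370 CPM in the 6 treated control libraries. Ifnar1 was counted at 6.49 to 12.5 CPM in treated clones against 8.98 to 16.7 CPM in treated controls. Its tags lie near the poly(A) tail, where an edited transcript can still be counted, so they do not check the knockout. Of 10 mesothelial and ovarian surface epithelial markers, 8 were tested, and their sum stood at 2440 to 3410 CPM in treated clones against 2990 to 4120 CPM in treated controls, ranges that overlap. Krt7 and Lrrn4 of that list were nearly absent, at 21 and 10 UMIs over all libraries. Of 10 leukocyte markers, 6 had 0 UMIs in every library, Ptprc among them, as had 2 of 6 endothelial markers, and the sums of these lists ran from 11.3 to 21.4 and 11.4 to 16.0 CPM in treated clones against 12.2 to 18.8 and 9.8 to 15.1 CPM in treated controls. Most of the leukocyte sum came from Cd14, with 896 UMIs over all libraries, and Cd68 had 115. Esam, with 730 UMIs, made up most of the endothelial sum. Of 5 urothelial markers, which mark the bladder lining, 4 had 0 UMIs in every library, Upk2 and Upk3a among them, and the fifth, Upk1a, stood at 0 to 0.907 CPM in treated clones against 0 to 1.14 CPM in treated controls.

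Untreated libraries chose these genes, so their values there are a description without a test. A gene was called shared when it passed the edgeR test (adjusted p below 0.05 over 11698 tested genes) in 1 direction in both clones against both controls. In untreated libraries 33 genes, or 0.282% of those tested, were shared, of which 5 (0.0427%) stood higher and 28 (0.239%) lower in the clones. The 5 higher genes were Id2, the mitochondrial tRNA gene mt-Tm, Jmjd6, Rassf1 and Upk1b, in the order of their smallest log2 difference over the 4 contrasts (0.44, 0.43, 0.32, 0.30 and 0.23). Among the 28 lower genes Ggh ranked 6 and Cacna2d2 ranked 8 with smallest differences of 2.17 and 2.02, beside the interferon genes Irf7 (2.38), Irf9 (2.07) and Apol9b (1.98).

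Treated libraries are other wells of the same lines and were not used in that choice, so they were tested. Of the 5 genes that also pass the filter in the clones alone, 4 were shared in treated libraries as well: Cacna2d2 was lower, and Id2, Jmjd6 and Upk1b were higher. Ggh was lower too, but a gene kept through the group where it is high had to differ, so its values are given as a description and it is left out of the counts of these genes between clones and controls. Over all tested genes 3.63% were shared there, 378 (3.23%) lower and 47 (0.402%) higher. Most of that background consists of genes that IFN beta changed in the controls: among 10741 genes called for a response in neither control, 18 (0.168%) were shared lower and 20 (0.186%) were shared higher. Id2, called for a response in EV, is outside these 10741 genes, and Ggh is among the 18. Taking 1 clone and 1 control at a time, 4 of the 5 genes beside Ggh were called in treated 1CF10 against EV and 5 against WT, where 18.9% and 32% of all tested genes were called. In treated 2CD7 the counts were 4 against EV and 5 against WT, where 15.5% and 14% of all tested genes were called. The gene that missed was Rassf1, in both contrasts with EV. Of the 33 genes shared in untreated libraries, 26 of 28 lower genes (92.9%) and 3 of 5 higher genes (60%) were shared in treated libraries. The 2 higher genes that were not were Rassf1 and mt-Tm. The count of lower genes includes Ggh and many genes that IFN beta raised in the controls, Irf7 and Irf9 among them. That rise widens their gap from the clones. Of the 33 genes, 9 were called for a response in neither control, so these shares say nothing on how often such genes repeat.

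**Figure D1:**
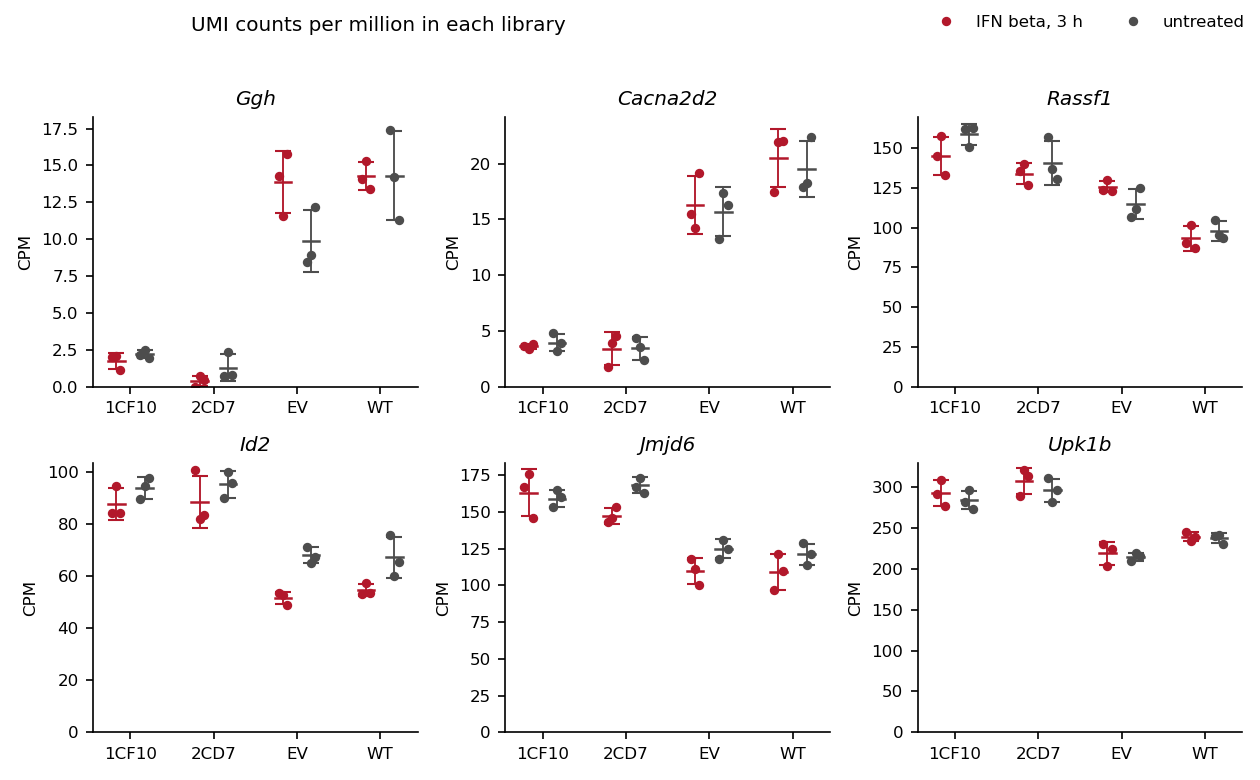
Level in CPM (y axis from 0) of the 6 genes in each library, by line on the x axis, with IFN beta libraries left of untreated ones. Points are libraries and bars are the mean ± SD (n = 3). Ggh and Cacna2d2 lie lower and Id2, Jmjd6 and Upk1b higher in every clone library than in every control library of the same treatment, while treated Rassf1 overlaps between 2CD7 and EV.

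Ggh (GRCm38 chromosome 4, 20042052 to 20066750, plus strand, last exon from 20065740) was the most depleted of the 6. After IFN beta it was counted at 2.01, 2.08 and 1.14 CPM in 1CF10 and at 0, 0.709 and 0.454 CPM in 2CD7, against 14.3, 11.6 and 15.8 CPM in EV and 14.1, 15.3 and 13.4 CPM in WT. Every treated clone library lay far below every treated control library, and the 0 of 1 treated 2CD7 library allows up to 1.30 CPM. The fitted log2 difference was -3.04 ± 0.34 (SE) for 1CF10 against EV and -3.09 ± 0.33 for 1CF10 against WT. The treated 2CD7 libraries held 3 UMIs in all, so a ratio of counts is given: 104 UMIs in EV and 114 in WT correspond to 33.7-fold (95% exact counting interval 11.2 to 166) and 35.0-fold (11.7 to 172) lower levels in 2CD7. Such intervals cover counting error alone. Untreated, the levels were 2.16, 2.50 and 1.94 CPM in 1CF10 and 0.727, 2.36 and 0.789 CPM in 2CD7, against 8.43, 8.92 and 12.2 CPM in EV and 17.4, 14.2 and 11.3 CPM in WT. Clone and control libraries did not overlap there either. The most UMIs in any clone library was 7, and no p-value of Ggh between clones and controls is given.

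Treated levels of Ggh ran in the order 2CD7 (0.387 ± 0.36 CPM, SD, n = 3), 1CF10 (1.74 ± 0.52), EV (13.9 ± 2.1) and WT (14.3 ± 0.95). The step between 2CD7 and 1CF10 did not pass the edgeR test (adjusted p = 0.0694), although the counts of 3 and 14 UMIs give a ratio of 0.234 with a counting interval of 0.0432 to 0.839. EV and WT differed by -0.05 ± 0.22 (edgeR adjusted p = 0.907).

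Cacna2d2 (GRCm38 chromosome 9, 107399612 to 107529343, plus strand, last exon from 107527321) was lower in the clones by a similar amount in both. Treated libraries held 3.68, 3.33 and 3.8 CPM in 1CF10 and 1.73, 3.9 and 4.54 CPM in 2CD7, against 15.5, 14.2 and 19.2 CPM in EV and 17.5, 21.9 and 22 CPM in WT. The highest clone library lay well under the lowest control library. The log2 difference was -2.24 ± 0.27 for 1CF10 against EV, -2.57 ± 0.26 for 1CF10 against WT, -2.29 ± 0.28 for 2CD7 against EV and -2.62 ± 0.27 for 2CD7 against WT, with a largest edgeR adjusted p of 1.49e-09. Untreated libraries held 4.76, 3.22 and 3.87 CPM in 1CF10 and 4.36, 3.54 and 2.37 CPM in 2CD7, against 13.2, 17.4 and 16.3 CPM in EV and 17.9, 18.3 and 22.4 CPM in WT. These levels lay in the same ranges as the treated ones. By mean, treated levels ran from 2CD7 (3.39 ± 1.5 CPM, SD, n = 3) and 1CF10 (3.6 ± 0.25) to EV (16.3 ± 2.6) and WT (20.5 ± 2.6). Within the pairs, 2CD7 against 1CF10 gave -0.05 with a 95% interval of -0.80 to 0.70, and EV against WT gave -0.34 with an interval of -0.71 to 0.04 (edgeR adjusted p = 0.958 and 0.228).

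Rassf1 (GRCm38 chromosome 9, 107551555 to 107562267, plus strand, last exon from 107561399) begins 22211 bp beyond the end of Cacna2d2 and was the 1 gene of the 6 that was called against WT but not against EV in treated libraries. Treated libraries held 145, 158 and 133 CPM in 1CF10 and 136, 140 and 127 CPM in 2CD7, against 124, 130 and 123 CPM in EV and 90.4, 102 and 87.5 CPM in WT. Every clone library exceeded every WT library, while the lowest 2CD7 library lay under the highest EV library. Against WT the log2 difference was 0.54 ± 0.09 in 1CF10 and 0.47 ± 0.09 in 2CD7 (edgeR adjusted p = 1.62e-06 and 8.18e-05). Against EV it was 0.12 ± 0.09 in 1CF10, with a 95% interval of -0.05 to 0.29, and 0.05 ± 0.09 in 2CD7, with an interval of -0.13 to 0.22 (edgeR adjusted p = 0.383 and 0.814). The 2 treated controls themselves differed, EV being higher than WT by 0.42 ± 0.09 (edgeR adjusted p = 0.000357). Rassf1 was the 1 gene of the 6 called in that contrast, in which 19.2% of all tested genes were called. In untreated libraries the levels were 162, 151 and 163 CPM in 1CF10 and 157, 137 and 131 CPM in 2CD7, against 107, 112 and 125 CPM in EV and 105, 95.3 and 93.5 CPM in WT. Untreated clones and controls did not overlap, with EV again nearer to the clones than WT was. Treated means ran from 1CF10 (145 ± 12 CPM, SD, n = 3) and 2CD7 (134 ± 6.6) through EV (126 ± 3.7) to WT (93.4 ± 7.8), and the steps of both clones above EV did not pass the test. The antisense gene Gm9917 overlaps the last exon of Rassf1 but held at most 6 UMIs in a library, and whether the counting used strand is not stated in the labels.

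**Figure D2:**
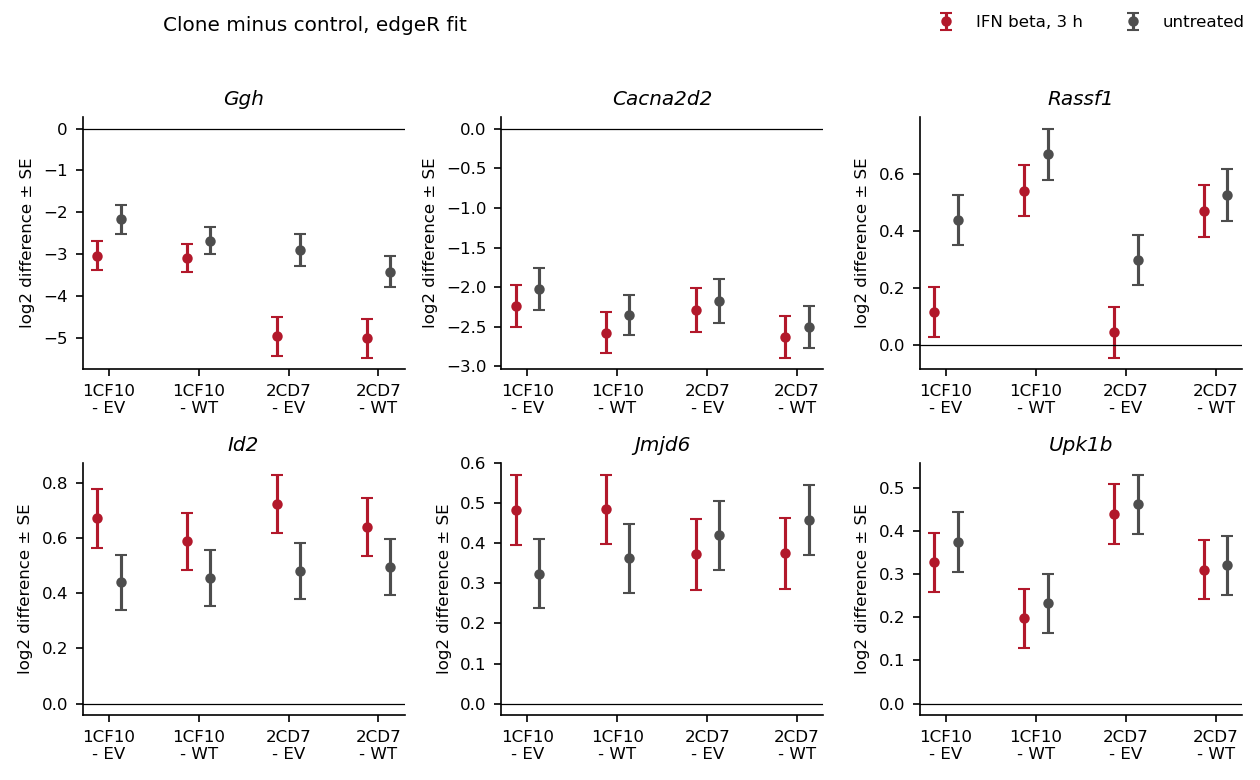
Log2 difference (y axis) of each clone from each control (x axis) in the edgeR fit, with treated libraries left of untreated ones and bars of 1 SE. Ggh and Cacna2d2 lie below 0 in all contrasts, and treated Rassf1 lies near 0 against EV (0.12 and 0.05).

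The 2 chromosome 9 genes start 151.9 kb apart, and between and around them no other tested gene shared either change without responding to IFN beta. Of the 10 tested genes that start within 200 kb of Cacna2d2, 1 was shared, Cish, a STAT-induced inhibitor of cytokine signalling 103.6 kb upstream. Cish was lower in treated clones by -1.92 ± 0.17 (edgeR adjusted p = 3.72e-14), and IFN beta raised it by 1.51 ± 0.24 in WT and 1.5 ± 0.24 in EV (edgeR adjusted p = 1.27e-06 and 1.72e-06). Mapkapk3, a stress kinase gene, had -0.73 ± 0.20 but was not called in all 4 contrasts. Tmem115, Cyb561d2 and Nprl2, which start between Cacna2d2 and Rassf1, had differences of 0.23 ± 0.10, -0.09 ± 0.08 and 0.08 ± 0.16 (edgeR adjusted p = 0.0998, 0.474 and 0.766). Tusc2 and Hyal2, just beyond Rassf1, had 0.01 ± 0.10 and 0.18 ± 0.16. Over 14 tested genes of a list of this cluster, the median difference was 0.02, the same as the 0.02 over all tested genes. On chromosome 9 as a whole, 411 genes with an average log2 CPM above 4 had medians of 0.04 and 0.07 in treated 1CF10 and 0.00 and 0.03 in treated 2CD7 against EV and WT.

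**Figure D3:**
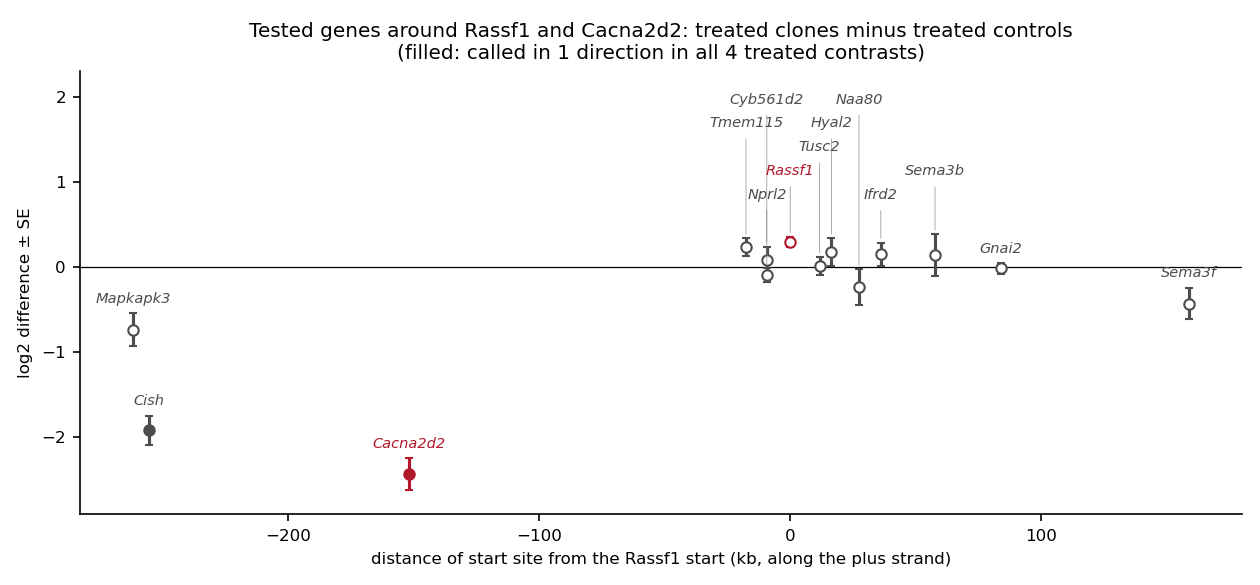
Log2 difference (treated clones minus treated controls, ± SE, y axis) of the tested genes around Rassf1 and Cacna2d2 by the distance of their start from that of Rassf1 (x axis, kb). Filled points are shared, Cacna2d2 (-2.43) and Cish (-1.92), while Rassf1 (0.29) lies among neighbours near 0.

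As Cacna2d2 and Rassf1 are neighbours with opposite differences in untreated libraries, the windows around their starts are shown. In treated libraries Rassf1 was not called against EV. The windows are from RefSeq on GRCm38.p6 with 250 bases before and 50 after each start. Capitals mark the GC box GGGCGG on either strand, and Rassf1 has 2 annotated starts, which the counts per gene do not separate.
Cacna2d2, chr9:107399630-107399929, plus strand: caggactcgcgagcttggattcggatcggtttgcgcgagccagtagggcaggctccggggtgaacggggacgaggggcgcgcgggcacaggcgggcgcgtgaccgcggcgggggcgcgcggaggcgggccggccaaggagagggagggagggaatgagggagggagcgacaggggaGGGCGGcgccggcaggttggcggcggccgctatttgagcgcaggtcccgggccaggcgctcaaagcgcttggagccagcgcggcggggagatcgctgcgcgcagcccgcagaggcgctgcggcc
Rassf1 upstream start, chr9:107551305-107551604, plus strand: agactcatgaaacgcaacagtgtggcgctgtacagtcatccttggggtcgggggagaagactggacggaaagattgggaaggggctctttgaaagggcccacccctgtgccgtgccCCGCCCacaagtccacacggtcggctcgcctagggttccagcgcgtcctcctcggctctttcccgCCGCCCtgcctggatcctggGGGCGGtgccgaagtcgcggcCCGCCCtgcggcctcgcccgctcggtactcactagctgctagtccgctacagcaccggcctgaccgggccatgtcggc
Rassf1 downstream start, chr9:107554333-107554632, plus strand: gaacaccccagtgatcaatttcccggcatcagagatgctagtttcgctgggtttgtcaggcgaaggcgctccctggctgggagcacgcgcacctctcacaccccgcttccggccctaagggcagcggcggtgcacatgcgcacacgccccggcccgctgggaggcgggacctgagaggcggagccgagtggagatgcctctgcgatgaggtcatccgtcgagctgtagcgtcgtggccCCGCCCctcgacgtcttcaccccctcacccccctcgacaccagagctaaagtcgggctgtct
The Cacna2d2 window holds 43 CpG dinucleotides, more than 97.4% of the 32851 windows of the RefSeq table, whose median is 7. Each Rassf1 window holds 27, more than 84.5% of windows. A GC box occurs 1 time in the Cacna2d2 window, 4 times at the upstream Rassf1 start and 1 time at the downstream one, and 35.7% of all windows hold one. The interferon-stimulated response element core (GAAA, any 2 bases, GAAA; in 3.44% of windows), the STAT site TTCNNNGAA (8.3%) and the E-box CACGTG (7.15%), searched on both strands, had 0 matches in these 3 windows.

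Id2 (GRCm38 chromosome 12, 25093799 to 25097140, minus strand) had the largest log2 difference of the 4 higher genes in treated libraries. Treated libraries held 84.4, 94.8 and 84.4 CPM in 1CF10 and 101, 82.2 and 83.5 CPM in 2CD7, against 53.5, 52.8 and 49.1 CPM in EV and 53.2, 57.4 and 53.7 CPM in WT. Clones and controls were separated by a wide gap. The log2 difference was 0.67 ± 0.11 for 1CF10 against EV, 0.59 ± 0.10 for 1CF10 against WT, 0.72 ± 0.11 for 2CD7 against EV and 0.64 ± 0.10 for 2CD7 against WT, with a largest edgeR adjusted p of 6.05e-06. Untreated libraries held 89.6, 94.7 and 97.8 CPM in 1CF10 and 90.2, 100 and 95.9 CPM in 2CD7, against 71.5, 65.3 and 67.5 CPM in EV and 76.0, 60.3 and 65.7 CPM in WT. The untreated gap was narrower, at 0.44 and 0.45 in 1CF10 and 0.48 and 0.50 in 2CD7 against EV and WT. Chromosome 12 as a whole went the other way in 1CF10: its 229 genes with an average log2 CPM above 4 had medians of -0.38 and -0.30 in treated 1CF10 against EV and WT, and of -0.10 and 0.00 in treated 2CD7. The treated levels of the 2 clones (88.8 ± 10 CPM in 2CD7 and 87.9 ± 6.0 in 1CF10, SD, n = 3) and of the 2 controls (51.8 ± 2.3 in EV and 54.8 ± 2.3 in WT) lay within the spread of their pair.

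Jmjd6 (GRCm38 chromosome 11, 116837432 to 116843449, minus strand) was higher in both clones too. Treated libraries held 167, 176 and 146 CPM in 1CF10 and 143, 146 and 153 CPM in 2CD7, against 118, 111 and 100 CPM in EV and 96.5, 121 and 110 CPM in WT. The log2 difference was 0.48 ± 0.09 for 1CF10 against EV, 0.49 ± 0.09 for 1CF10 against WT, 0.37 ± 0.09 for 2CD7 against EV and 0.37 ± 0.09 for 2CD7 against WT, with a largest edgeR adjusted p of 0.00137. All treated clone libraries exceeded all treated control libraries. Untreated libraries held 153, 165 and 160 CPM in 1CF10 and 167, 173 and 163 CPM in 2CD7, against 118, 131 and 125 CPM in EV and 129, 114 and 121 CPM in WT. The order of the clones differed between the treatments, and 2CD7 against 1CF10 did not pass the test in treated libraries (-0.11 ± 0.08, edgeR adjusted p = 0.442). Mettl23, which starts 0.171 kb from Jmjd6 on the opposite strand, had a treated difference of -0.13 ± 0.11 (edgeR adjusted p = 0.454), so this head-to-head partner was not called. Srsf2 and Mfsd11, the next tested genes, had 0.11 ± 0.06 and 0.13 ± 0.13.

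Upk1b (GRCm38 chromosome 16, 38773184 to 38800328, minus strand) lies 52.7 Mb from Ifnar1 on the same chromosome and showed a small increase. Treated libraries held 291, 308 and 276 CPM in 1CF10 and 289, 320 and 313 CPM in 2CD7, against 230, 203 and 224 CPM in EV and 245, 234 and 239 CPM in WT. The ranges did not overlap, with WT nearest to the clones. The log2 difference was 0.33 ± 0.07 for 1CF10 against EV, 0.44 ± 0.07 for 2CD7 against EV and 0.31 ± 0.07 for 2CD7 against WT (edgeR adjusted p = 0.000227, 9.6e-07 and 0.00058). For 1CF10 against WT it was 0.20 ± 0.07 (edgeR adjusted p = 0.0199), and this call was lost without treated 1CF10 library 1 (0.18, adjusted p = 0.0712), treated 1CF10 library 2 (0.15, adjusted p = 0.129), treated WT library 2 (0.17, adjusted p = 0.0954) or treated WT library 3 (0.19, adjusted p = 0.0702). Without any 1 of these libraries, Upk1b was not shared. Untreated libraries held 282, 296 and 273 CPM in 1CF10 and 311, 282 and 296 CPM in 2CD7, against 209, 219 and 216 CPM in EV and 240, 241 and 230 CPM in WT. Of its 3 tested neighbours within 200 kb, none was shared. Igsf11, an adhesion gene, was lower than EV in both treated clones but was not called against WT (edgeR adjusted p = 0.687 in 1CF10 and 0.335 in 2CD7).

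Counted by library, 4 of the 5 genes that pass the filter in the clones alone did not overlap between the 6 treated clone libraries and the 6 treated control libraries, as 5.97% of all tested genes did not. Rassf1 was the exception, and Ggh, left out of this count, did not overlap. In untreated libraries none of the 6 overlapped, against 1.36% of all tested genes without overlap, from which nothing is read as these libraries chose the genes. Between the treated clones none of the 6 was called, with 1 at an unadjusted p below 0.05, by edgeR, DESeq2 and limma-voom alike. In that contrast, 2CD7 against 1CF10, edgeR called 15.2% of all tested genes. A lack of calls among 6 genes is near that share. The genes were also chosen for a common direction in both clones, so nothing is read from it.

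The name non-interferon was checked by the response to 3 h of IFN beta within each line. Of the 6 genes, edgeR called 1 in EV, where 5.09% of all tested genes were called, and 0 in WT, where 6.85% were called. It called 0 in 1CF10 and 0 in 2CD7, where 0% of all tested genes were called by edgeR and DESeq2 and limma-voom called 0 genes in 1CF10 and 1 in 2CD7. At an unadjusted p below 0.05 edgeR had 485 genes in 1CF10 and 510 in 2CD7. Among the 6 the counts at that unadjusted p were 2 in EV, 1 in WT, 0 in 1CF10 and 1 in 2CD7, and DESeq2 and limma-voom called 0 in all 4 lines. DESeq2 had 1, 0, 0 and 1 at an unadjusted p below 0.05, and limma-voom had 2, 1, 0 and 1. These contrasts use the untreated libraries that chose the genes.

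The gene called was Id2, which fell in EV to 51.8 ± 2.3 CPM with IFN beta, against 68.1 ± 3.1 CPM untreated (SD, n = 3). Its log2 fold change was -0.35 ± 0.11 in EV (edgeR adjusted p = 0.0447) and -0.25 ± 0.11 in WT (edgeR adjusted p = 0.185), with -0.12 ± 0.10 in 1CF10 and -0.11 ± 0.10 in 2CD7 (edgeR adjusted p = 0.998 and 0.997). The call in EV was at the edge: it was lost without any 1 of 14 of the 24 libraries, each of the 6 EV libraries among them, with adjusted p up to 0.196. For the difference between the responses of clones and controls, edgeR called 0 of the 6 genes and 613 of the 11698 tested genes. This contrast holds the untreated difference that chose the genes, so nothing is read from it.

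Ggh had 0.53 ± 0.24 in EV and 0.06 ± 0.22 in WT (edgeR adjusted p = 0.273 and 0.936). In treated 2CD7 its 3 UMIs stood against 10 in untreated 2CD7, a ratio of 0.320 with a counting interval of 0.0566 to 1.24. Cacna2d2 had 0.09 ± 0.20 in EV and 0.10 ± 0.19 in WT, and Upk1b had 0.07 ± 0.07 and 0.06 ± 0.07. Jmjd6 had -0.14 ± 0.09 in EV and -0.11 ± 0.09 in WT, and Rassf1 had 0.17 ± 0.09 and -0.02 ± 0.09. For these 4 genes the edgeR adjusted p in the controls was at least 0.379.

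**Figure D4:**
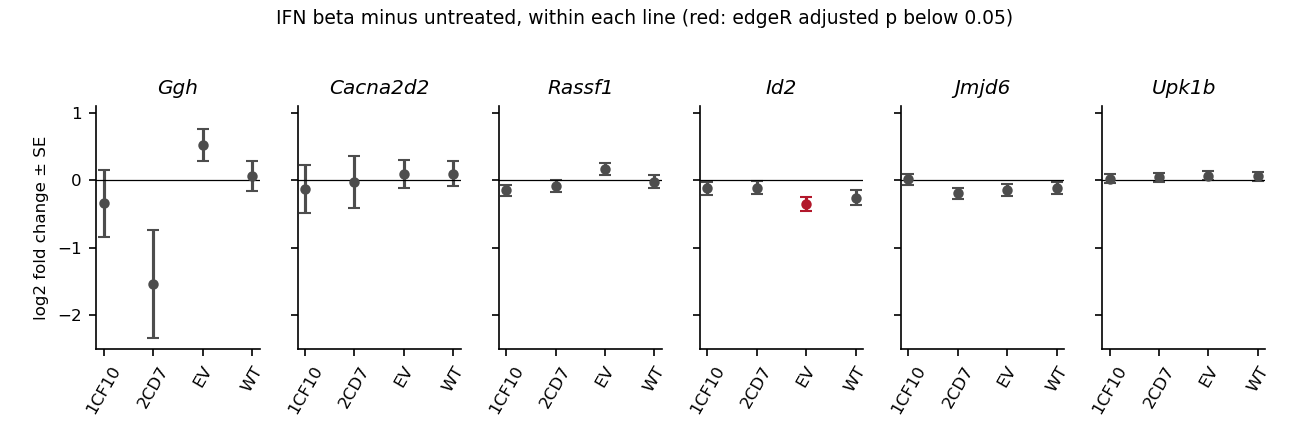
Log2 fold change of IFN beta over untreated libraries within each line (y axis, ± SE) for the 6 genes, by line on the x axis. Red marks the 1 call, Id2 in EV (-0.35), and the wide bar of Ggh in 2CD7 rests on 3 and 10 UMIs.

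The start of Id2 is shown as Id2 was the gene with a call for IFN beta, in the same RefSeq windows and with GC boxes in capitals.
Id2, chr12:25096043-25096342, minus strand: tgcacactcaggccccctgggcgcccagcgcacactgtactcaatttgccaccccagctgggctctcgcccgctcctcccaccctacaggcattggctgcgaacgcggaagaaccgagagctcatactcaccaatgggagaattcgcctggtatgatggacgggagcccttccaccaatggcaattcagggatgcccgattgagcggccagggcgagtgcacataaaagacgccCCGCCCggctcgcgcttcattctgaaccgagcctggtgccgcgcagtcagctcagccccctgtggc
It holds 1 GC box and 21 CpG dinucleotides, more than 75.2% of windows, with 0 matches to the response element core, the STAT site or the E-box. The Jmjd6 window holds 33 CpG dinucleotides and 0 matches to the 4 motifs.

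Genes that work with the 6 were read from lists. Over all tested genes 3.63% were shared in treated libraries. In lists of this size a count of 0 or 1 is near that share and says nothing on a pathway. In the folate and one-carbon list, 0 of 19 tested genes beside Ggh were shared in treated libraries, and by the mean of both clones against both controls 4 were higher and 0 lower, where 21.7% of all tested genes were called, 9.72% higher and 12% lower. Slc25a32, the mitochondrial folate carrier, had 0.42 ± 0.12, Slc19a1, the reduced folate carrier, 0.33 ± 0.12 and Shmt2, a mitochondrial serine enzyme, 0.27 ± 0.06 (edgeR adjusted p = 0.00903, 0.032 and 0.000529). Slc25a32 was called in 1CF10 against each control and in 2CD7 against neither. Slc19a1 and Shmt2 were called in both clones against WT only. Against EV, in 1CF10 and 2CD7, Slc19a1 had 0.10 and 0.09 and Shmt2 had 0.15 and 0.09 (edgeR adjusted p at least 0.241). Fpgs, which adds the glutamates that Ggh removes, had 0.41 ± 0.16 and did not pass (edgeR adjusted p = 0.0558). Of these, IFN beta lowered Slc25a32 in EV, by -0.62 ± 0.17 (edgeR adjusted p = 0.0184). The median over the list was 0.03, against 0.02 over all tested genes. Among calcium channel subunits only 3 genes beside Cacna2d2 were abundant enough to test, of 18 listed: Cacnb3, Cacna2d1 and Cacna1a had 0.21 ± 0.09, 0.19 ± 0.11 and -0.06 ± 0.29, and none was called. The sister subunit gene Cacna2d1 had edgeR adjusted p = 0.25.

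In the RASSF and Hippo list, 0 of 18 tested genes beside Rassf1 were shared, with 5 higher and 2 lower by the mean contrast and a median of 0.11. By that contrast 21.7% of all tested genes were called, the share to set beside each list. Sav1, an adaptor of the Hippo kinases, had -0.59 ± 0.17, and the matricellular genes Ccn1 and Ccn2, targets of the pathway, had 0.46 ± 0.14 and -0.45 ± 0.11 (edgeR adjusted p = 0.00637, 0.00936 and 0.00405). These means hide differences between the clones. Ccn1 had -0.37 and 0.16 in 2CD7 and 0.76 and 1.29 in 1CF10, against EV and WT, and was called in 1CF10 only. Ccn2 was lower in 2CD7 (-1.65 and -0.67 against EV and WT) but higher in 1CF10 against WT (0.74, edgeR adjusted p = 0.00041), and by the mean of untreated libraries it was higher in the clones (0.51 ± 0.12, edgeR adjusted p = 0.0067). Sav1 was called against EV in both clones and against WT in neither. The list of ID proteins, E proteins and BMP targets had 1 shared gene of 12, Tcf4, an E protein of the kind that Id2 binds, which was lower by -0.76 ± 0.09 (edgeR adjusted p = 6.11e-10). The list had 1 higher and 2 lower genes by the mean contrast and a median of 0.08. IFN beta raised Tcf4 by 0.54 ± 0.13 in WT and 0.71 ± 0.13 in EV (edgeR adjusted p = 0.00245 and 2.92e-05). Id1, another ID gene, was lower by the mean contrast of treated libraries (-0.47 ± 0.07, edgeR adjusted p = 1.04e-06), with -0.19 ± 0.10 in 2CD7 and -0.89 ± 0.11 in 1CF10 against EV (edgeR adjusted p = 0.223 and 1.01e-09). IFN beta raised Id1 in both controls, by 0.60 ± 0.11 in WT and 0.77 ± 0.11 in EV (edgeR adjusted p = 3.61e-05 and 1.14e-07). Id3 had -0.12 ± 0.07 (edgeR adjusted p = 0.237). IFN beta raised Id3 too, by 0.35 ± 0.10 in WT and 0.38 ± 0.10 in EV (edgeR adjusted p = 0.0124 and 0.0121). By the mean of untreated libraries Id1 and Id3 were higher in the clones, by 0.35 ± 0.08 and 0.37 ± 0.07 (edgeR adjusted p = 0.0016 and 0.00016). Neither was shared in untreated libraries. The E protein gene Tcf3 had 0.43 ± 0.14 (edgeR adjusted p = 0.0257). Against EV and WT it was called in 1CF10 (0.59 and 0.58) but not in 2CD7 (0.28 and 0.27, edgeR adjusted p = 0.447 and 0.461).

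Of 26 tested JmjC oxygenases and partners beside Jmjd6, 0 were shared and 2 were higher by the mean contrast, the histone demethylase genes Kdm6b (0.80 ± 0.21) and Phf2 (0.70 ± 0.17), with edgeR adjusted p = 0.00508 and 0.00123. Both were called in 1CF10 against each control and in 2CD7 against neither. Jmjd4 had 0.38 ± 0.18 and did not pass (edgeR adjusted p = 0.133). The median over this list was 0.11. Of 18 tested uroplakins and tetraspanins beside Upk1b, 0 were shared, with 1 higher and 5 lower by the mean contrast and a median of 0.01. Upk3b, another uroplakin, was higher than EV in both treated clones (1.75 ± 0.50 in 1CF10 and 3.10 ± 0.41 in 2CD7) but lower than WT in 1CF10 (-0.98 ± 0.32), with edgeR adjusted p = 0.00797, 1.73e-08 and 0.014. Tspan13, a tetraspanin, had -0.68 ± 0.18 (edgeR adjusted p = 0.0035), with -0.06 and 0.18 in 2CD7 (edgeR adjusted p = 0.916 and 0.702) and -1.54 and -1.30 in 1CF10, against EV and WT. The zero counts of shared genes in these lists held for DESeq2 and limma-voom, and at an unadjusted p below 0.05 in all 4 contrasts edgeR had 1 gene, in the JmjC list, and 0 in the other lists with a count of 0. DESeq2 had the same counts, and limma-voom had 1 more, among the uroplakins and tetraspanins.

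**Figure D5:**
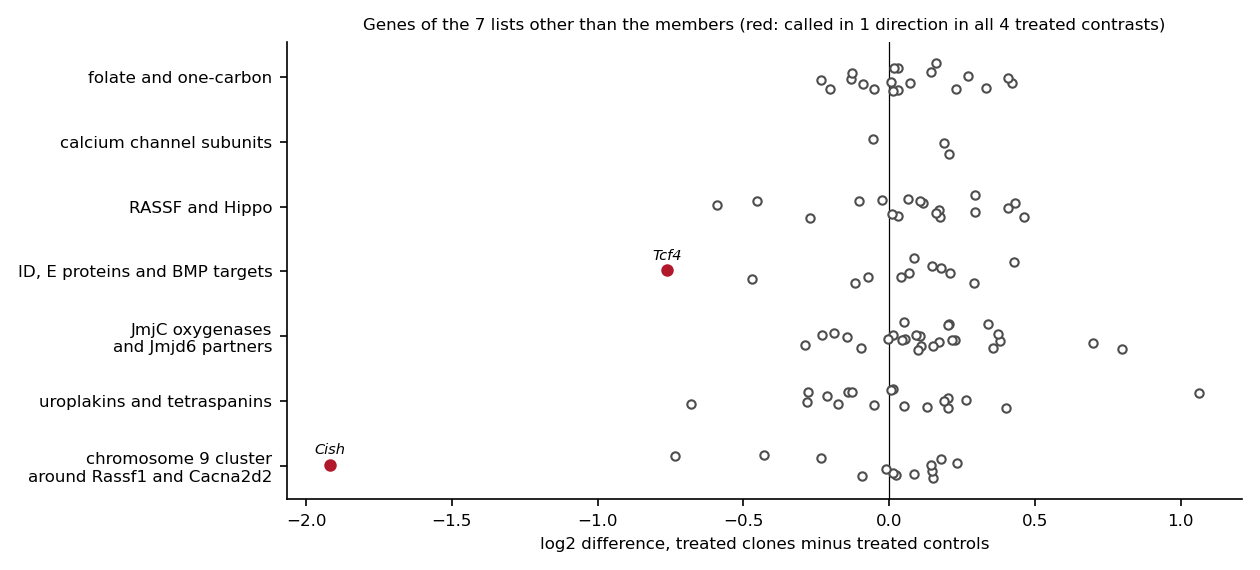
Log2 difference (treated clones minus treated controls, x axis) of the tested genes of each list, the 6 genes left out. Red points are shared in all 4 treated contrasts, Tcf4 (-0.76) and Cish (-1.92), and the remaining genes of the lists scatter on both sides of 0.

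Across the 24 libraries the 6 genes fell into 2 patterns by Pearson correlation of log2 CPM, given as a description since the libraries share lines and the genes were chosen for a common difference. Ggh and Cacna2d2 correlated with r = 0.95, and Id2 and Jmjd6 with r = 0.913, while Rassf1 and Upk1b had the lowest r within the higher genes, 0.572. Of 9809 candidates, the genes most like Cacna2d2 were Ifi27 (r = 0.96), Ggh (0.95) and Ifi27l2a (0.923), and those most like Ggh were Cacna2d2 (0.95), Ifi27 (0.939) and Ifi27l2a (0.932). Ifi27 and Ifi27l2a belong to the interferon-inducible genes, and in WT they rose with IFN beta by 0.40 and 1.08 (edgeR adjusted p = 0.0141 and 0.00153). In EV neither was called, with -0.13 and 0.05 (edgeR adjusted p = 0.662 and 0.971). A known interferon gene could thus go uncalled in a control after 3 h. Id2 was most like Jmjd6 (0.913), Asf1b, a histone chaperone gene (0.90), and Mrps26, a mitochondrial ribosomal gene (0.838). Jmjd6 was most like Id2 (0.913), Unc119b (0.874) and Asf1b (0.849), and Asf1b was shared higher in treated libraries, with 0.43 ± 0.06 (edgeR adjusted p = 2.05e-07). Rassf1 was most like Nudc (0.878), Wdr18 (0.876) and Snora73b (0.875), none of which was shared. Upk1b was most like Sap18b (0.861), Rab38 (0.849) and P4ha2 (0.847), of which none was shared either.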

How the data were processed

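Total RNA of 24 samples was profiled by multiplexed RNA sequencing from the poly(A) tail, from 20 ng of RNA per the labels' protocols, with UMIs of 10 bp. The authors deposited raw UMI counts for each Ensembl gene, with 1 column for each library. Per the submitters' processing notes, GRCm38 and mm10 were the builds and the tools included limma 3.50.0, edgeR 3.36.0, cutadapt 3.0 and R (3.6.2, 4.1.2). The aligner was not stated there. The GRCm38 annotation GENCODE M21 gave gene positions (24538 of 24614 identifiers matched), and start windows of 4 of the 6 genes from RefSeq on GRCm38.p6.

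Groups followed line and treatment, 3 libraries in each of 8 groups. Genes were kept by filterByExpr (minimum count 10, minimum total 15), which left 11698 genes, all 6 described among them. One edgeR model (version 4.0.16, R 4.3.3) covered all libraries (TMM scaling, robust quasi-likelihood F test on group means, Benjamini-Hochberg adjustment over all tested genes of a contrast, threshold 0.05). The SE is the log2 fold change divided by the square root of F, and 95% intervals of log2 values are 1.96 SE to each side. Counting intervals are exact binomial, and a count of 0 allows up to 3 UMIs. The fit was tested on simulated data.

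Alternatives were RLE size factors, DESeq2 1.42.0, limma-voom (limma 3.58.1), no count filter, the replicate block, a minimum count of 30, thinning to 1972192 UMIs, the treated libraries alone and leaving out each library. The 6 genes and the gene lists were chosen with earlier results of these data known. Named beside the 6 were Ifnar1 and Rsad2, the 3 most correlated genes of each with an average log2 CPM of at least 1, tested neighbours within 200 kb, genes next to them in the untreated ranking, and up to 4 shared members of a list or else up to 3 with the largest difference. Further list genes and markers were named after their values were seen.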

Additional observations from a re-analysis of the deposited data

How the results depend on the processing

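The log2 difference of treated clones from treated controls kept its direction for all 6 genes under all 32 alternatives and passed the test for the 5 beside Ggh, with ranges of -4.41 to -3.79 for Ggh, -2.55 to -2.29 for Cacna2d2, 0.26 to 0.33 for Rassf1, 0.60 to 0.68 for Id2, 0.38 to 0.47 for Jmjd6 and 0.28 to 0.34 for Upk1b. Counting Ggh, the number of the 6 genes shared in treated libraries was 4 or 5, and it was 4 with thinned libraries, where Upk1b in 1CF10 against WT had 0.18 (edgeR adjusted p = 0.0655). DESeq2 called 31 genes of the table shared higher in place of 47, and the cause was not tested. The number of the 6 genes called for IFN beta in EV was 0 with DESeq2, limma-voom, no count filter and thinned libraries, and 0 to 1 when 1 library was left out, where Id2 had -0.37 to -0.31; the cause was not tested. The remaining counts moved by less than 1.5 times. Treated Ggh rests on 3 UMIs in 2CD7 and 14 in 1CF10, which limits the precision of its fold.

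Replicate numbers were compared as a pairing by the correlation of deviations from the group mean. It was 0.00928 on average between libraries of the same number (-0.0775 to 0.0830, 84 pairs). Between libraries of other numbers it was -0.00464 (168 pairs). Both means were near 0, so replicate numbers were not treated as pairs. Of 24 libraries, 13 correlated best with their own number, above 1 in 3, so a weak pairing is not excluded. With the replicate number as a block, 5 of the 6 genes, Ggh counted, were shared, with 51 higher and 384 lower genes in all. Treated 1CF10 library 3 stood apart from its replicates. A chi-square of counts, averaged over genes, was 4.90 and 3.82 for it against libraries 1 and 2 of that group. Between libraries 1 and 2 it was 1.65, and within the other groups at most 2.80.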

Other observations

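The 6 genes were not the only ones of their kind. Of the 33 genes shared in untreated libraries, 9 were called for a response to IFN beta in neither control, and 4 of these were not among the 6: Laptm4a, a lysosomal membrane gene, Clu, which encodes the chaperone clusterin, Capg, an actin-capping gene, and Scd1, a fatty acid desaturase gene, all named after their values were seen. Laptm4a, Clu and Capg were lower in treated clones as well, by -0.65 ± 0.05, -0.62 ± 0.05 and -0.43 ± 0.04 (edgeR adjusted p = 2.42e-17, 4.81e-17 and 5.14e-12). Each was shared there, but with a larger difference in 1CF10: Clu had -0.89 ± 0.07 in 1CF10 and -0.22 ± 0.07 in 2CD7 against EV. Scd1 was not shared in treated libraries, where it had -0.40 ± 0.12 in 1CF10 and -0.04 ± 0.12 in 2CD7 against EV (edgeR adjusted p = 0.0132 and 0.892).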
